A study of Mus musculus with 11 samples.

Results

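The transcripts of 10 circadian clock genes were followed in whole eyes of *miR-211*-/- (KO) and wild-type (WT) mice. They were *Arntl*, *Clock*, *Per1*, *Per2*, *Per3*, *Cry1*, *Cry2*, *Nr1d1*, *Nr1d2* and *Dbp*, which were taken by their symbols, each of which matched 1 Ensembl gene, from the 38393 genes that the files list. All 10 were among the 15767 genes that passed the filter on low counts, at least 1 CPM (counts scaled to library size) in at least 5 libraries. RNA was sequenced from whole eyes of 1–2 month old C57BL/6 mice that still held retina, retinal pigment epithelium (RPE), choroid, sclera and ciliary body, in 11 libraries from 5 WT and 6 KO animals. The KO mice lack the precursor of miR-211, a microRNA that lies in an intron of *Trpm1*, in every cell from the germ line on. Per the study's methods all KO animals were male and the WT animals were of both sexes, and which WT library came from which sex is not given there, so that genotype and sex are partly confounded. The time of day at which the eyes were taken is not given in the sources used here. The expected count of Mir211 was 0 in all 11 libraries, and the counts therefore cannot check the deletion.

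The circadian clock is a feedback loop of transcription that runs in nearly every cell and keeps a rhythm of about a day. ARNTL (also called BMAL1) and CLOCK form a dimer that binds E-boxes and switches on the *Per*, *Cry*, *Nr1d* and *Dbp* genes. PER and CRY proteins then block the dimer, the NR1D (REV-ERB) receptors repress *Arntl* through ROR elements, and DBP acts on genes with D-boxes. For this reason *Arntl* transcripts peak at nearly the opposite time of day to those of *Dbp* and *Nr1d1*. The retina holds a clock of its own, which is set by light and drives rhythms of dopamine, melatonin, photoreceptor coupling and outer segment renewal.

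By the Gencode M21 annotation of GRCm38 the activators *Arntl* (ENSMUSG00000055116) and *Clock* (ENSMUSG00000029238) lie on chromosome 7 from 113207465 to 113314126 and on chromosome 5 from 76209868 to 76304792. The period genes are *Per1* (ENSMUSG00000020893, chromosome 11, 69095217 to 69109960), *Per2* (ENSMUSG00000055866, chromosome 1, 91415982 to 91459324) and *Per3* (ENSMUSG00000028957, chromosome 4, 151003652 to 151044665). The cryptochrome genes are *Cry1* (ENSMUSG00000020038, chromosome 10, 85131700 to 85185064) and *Cry2* (ENSMUSG00000068742, chromosome 2, 92403646 to 92434043). *Nr1d1* (ENSMUSG00000020889, chromosome 11, 98767932 to 98775333) and *Nr1d2* (ENSMUSG00000021775, chromosome 14, 18204054 to 18239127) encode the REV-ERB receptors, and *Dbp* (ENSMUSG00000059824) lies on chromosome 7 from 45705088 to 45710203.

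Whole eyes hold many tissues, and the markers of the labelled ones were present. The 4 bipolar cell markers of the retina summed to 698 to 889 CPM, and *Rpe65*, an RPE enzyme, was read at 90.4 to 157 CPM. Lens and cornea had been removed, but *Cryaa*, a lens crystallin, reached 38372 CPM in WT replicate 4, 11782 CPM in KO replicate 3 and 1896 CPM in KO replicate 6, against at most 30.7 CPM in the other libraries. *Krt12*, a keratin of the corneal epithelium, lay between 4.26 and 3514 CPM. The column names of a supplementary table of the study fall into a kind with a mouse number and a kind with an age, and by the proportions of their counts the libraries could be matched to these columns. The mouse-number series holds WT replicates 1 and 2 and KO replicates 1, 2 and 3, and the age series holds WT replicates 3, 4 and 5 and KO replicates 4, 5 and 6. What else set the series apart (preparation date, litter, hour of collection, the exact age) is not given in the sources used here.

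The sequences that bear on these genes are the seed of the deleted microRNA and the promoter elements through which clock proteins act. miR-211-5p and its paralog miR-204-5p, which KO mice keep, have the same seed (bases 2 to 8, in capitals) and differ at 1 base, U17A, counted from the 5′ end with the base of miR-211-5p first. Mature sequences are from RefSeq (GRCm38.p6).
mmu-miR-211-5p: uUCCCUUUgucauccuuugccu
mmu-miR-204-5p: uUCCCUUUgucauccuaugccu

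Sites for this seed were searched in the 3′ untranslated region (3′ UTR) of 1 transcript per gene, as AAAGGGA (7mer-m8), AAGGGAA (7mer-A1) or both overlapping. Of the 10 clock genes, *Clock* had 1 site, at bases 1635 to 1641 of its 3′ UTR of 6831 bases, and the other 9 had 0. Among all 14502 genes with a 3′ UTR, 24.7% held at least 1 site. The site of *Clock* is shown with the seed match in capitals, since it is the place where the deletion could be looked for in this loop by sequence alone. A match of letters is not a measured site.
Clock 3′ UTR site: attactgagaAAAGGGAggataa

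Promoters were available from RefSeq (GRCm38.p6) for 9 of the 10 genes, all but *Per2*, with 13 start sites in all, and 250 bases upstream of each start were searched on both strands. The E-box (CACGTG) was found upstream of *Per1* and *Cry1*, in 6.02% of all 32851 promoters. An E′-box (CACGTT, which reads AACGTG in the printed strands) was found for *Cry1*, *Cry2* and *Nr1d1*, against 3.85% of all promoters. *Per3* alone had D-boxes (TTATGTAA or TTACGTAA), 2 of them, at bases -205 to -198 and -158 to -151 before its start, against 0.931% of all promoters. The ROR element core (TAGGTCA) and the cAMP response element (TGACGTCA) were found upstream of 0 of the 9 genes, and in 2.23% and 1.55% of all promoters. These letters describe the windows and not binding. The promoters of *Cry1*, *Cry2*, *Nr1d1* and *Per3* are shown because these 4 genes differed between the library series below, with the E-box, E′-box or D-box letters in capitals. Each ends at the base before the start site.
Cry1 promoter (chr10:85185055-85185304, minus strand): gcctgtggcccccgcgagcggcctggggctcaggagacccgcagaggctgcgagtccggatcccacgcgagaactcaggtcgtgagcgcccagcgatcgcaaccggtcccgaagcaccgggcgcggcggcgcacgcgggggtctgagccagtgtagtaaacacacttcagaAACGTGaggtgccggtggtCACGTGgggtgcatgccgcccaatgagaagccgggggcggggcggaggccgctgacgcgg
Cry2 promoter (chr2:92434070-92434319, minus strand): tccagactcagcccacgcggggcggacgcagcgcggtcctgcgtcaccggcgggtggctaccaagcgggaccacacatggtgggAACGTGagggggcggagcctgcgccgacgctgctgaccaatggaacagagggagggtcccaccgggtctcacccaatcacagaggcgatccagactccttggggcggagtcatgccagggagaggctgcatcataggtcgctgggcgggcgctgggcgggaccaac
Nr1d1 promoter (chr11:98775378-98775627, minus strand): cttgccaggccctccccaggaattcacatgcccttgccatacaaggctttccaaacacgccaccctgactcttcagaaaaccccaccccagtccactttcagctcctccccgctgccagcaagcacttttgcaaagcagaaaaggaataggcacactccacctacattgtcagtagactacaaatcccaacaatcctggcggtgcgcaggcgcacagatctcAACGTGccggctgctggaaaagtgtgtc
Per3 promoter (chr4:151044666-151044915, minus strand): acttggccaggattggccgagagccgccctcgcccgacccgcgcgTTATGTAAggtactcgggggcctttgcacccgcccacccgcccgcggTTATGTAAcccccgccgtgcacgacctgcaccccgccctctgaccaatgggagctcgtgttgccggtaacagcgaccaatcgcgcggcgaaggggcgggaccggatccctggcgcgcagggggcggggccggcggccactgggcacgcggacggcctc

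The levels of different genes were compared per length, as FPKM (fragments scaled to transcript length and to mapped fragments), which the authors deposited beside the counts. *Nr1d1*, which encodes REV-ERBα, was the most abundant of the 10 with 81.3 ± 11.1 FPKM (SD, n = 11), and *Dbp*, the transcription factor that carries the output of the loop, stood beside it with 80.7 ± 12.5 FPKM (SD, n = 11). The second REV-ERB gene, *Nr1d2*, followed with 50.2 ± 6.38 FPKM. A middle group was made of *Cry2*, a repressor, with 33.6 ± 6.46 FPKM, *Per1* with 30.1 ± 8.71, *Arntl* with 28.5 ± 3.50 and *Per3* with 26.4 ± 4.55 FPKM. *Clock* and *Cry1* were lower, at 14.7 ± 2.30 and 14.6 ± 2.72 FPKM. *Per2*, another period gene, was lowest with 6.49 ± 0.860 FPKM.

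The order was tested within libraries for the 9 pairs of neighbours, with a two-sided exact permutation test that flips the sign of the log2 FPKM difference in each library. In 4 of the 9 pairs the higher gene was higher in all 11 libraries, with an adjusted p of 0.0022 over the 9 pairs, which is the smallest value this design gives here. These were *Dbp* over *Nr1d2* (mean log2 ratio 0.68), *Nr1d2* over *Cry2* (0.59), *Per3* over *Clock* (0.85) and *Cry1* over *Per2* (1.16). The other 5 pairs did not pass the threshold (exact permutation test, adjusted p from 0.0563 to 0.861). *Nr1d1* was above *Dbp* in 6 of 11 libraries (exact permutation test, adjusted p = 0.861) and *Clock* above *Cry1* in 5 of 11 (adjusted p = 0.861 in the same exact test). *Cry2* was above *Per1* in 9 of 11 libraries, with an adjusted p of 0.0563 in this exact test. FPKM, unlike the TMM-scaled CPM below, has no correction for the crystallin share of WT replicate 4, whose FPKM was the lowest of the 11 for *Arntl*, *Cry1* and *Cry2*.

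**Figure D1:**
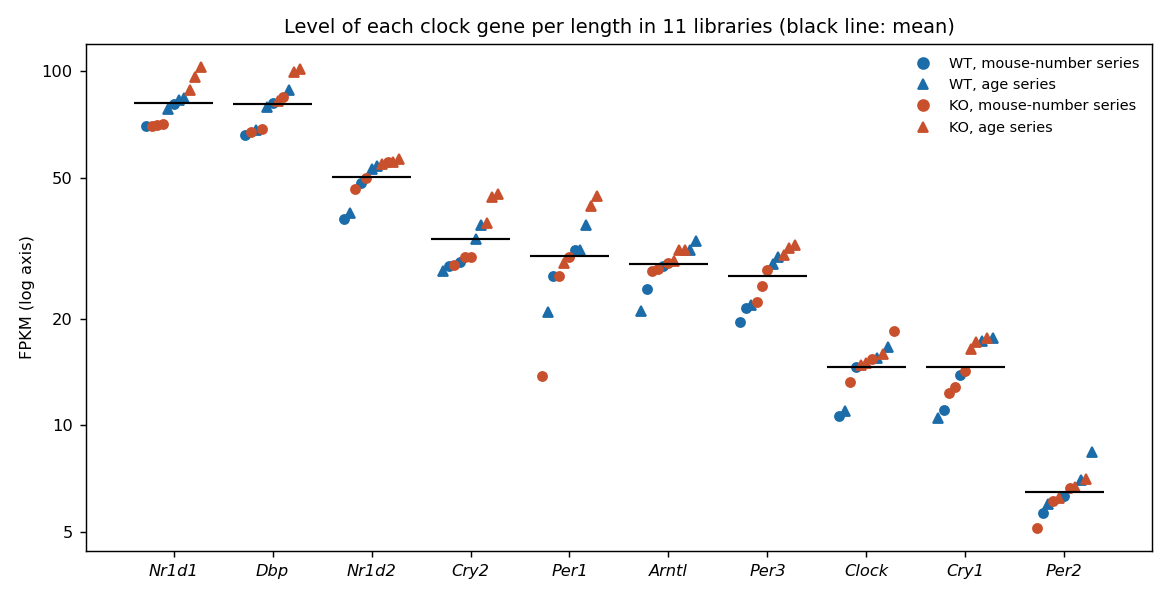
FPKM of each clock gene in every library on a log axis, ordered by the mean over the 11 libraries (black line), with WT in blue, KO in orange, circles for the mouse-number series and triangles for the age series. *Nr1d1* and *Dbp* share the top at means of 81.3 and 80.7 FPKM, and *Per2* lies below all others at a mean of 6.49 FPKM, with points of one gene sorted from left to right by value.

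The libraries differed little in these genes. Between 693 (*Per2* in KO replicate 3) and 8712 (*Nr1d2* in KO replicate 2) read pairs stood behind a value, so that counting alone gives a coefficient of variation of at most 3.80%. The lowest and the highest of the 11 libraries were 1.35-fold apart for *Arntl* and at most 1.73-fold apart in 9 of the 10 genes. The exception was *Per1*, a gene that light and glucocorticoids also induce, with a 3.04-fold range from 60.8 CPM in KO replicate 3 to 184 CPM in KO replicate 5. The SD of log2 CPM over the libraries had a median of 0.21 over the 10 genes and of 0.20 over all 15767 genes tested. *Arntl* varied less than most genes (SD 0.13, with 25.1% of all genes below it), and *Per1* more than most (SD 0.43, with 84.8% below it).

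The comparison of KO with WT asks whether loss of miR-211 moved the clock genes. In edgeR's likelihood-ratio test 1 of the 15767 genes (0.00634%) had an adjusted p under 0.1, and 0 of the 10 clock genes did. An unadjusted p under 0.05 was likewise found for 0 of them, and the quasi-likelihood test and DESeq2 called 0 of them as well. Their log2 fold changes (KO over WT) ran from -0.13 to 0.17 with a median of 0.09, beside a median of 0.0027 over all genes tested, and 9 were above 0 and 1 below. The WT and KO libraries overlapped for all 10 genes, while 0.184% of all genes tested had no overlap.

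Of the activators, *Arntl* was read at 69.1, 81.7, 85.9, 69.6 and 93.0 CPM in WT replicates 1 to 5, and in the KO libraries from 78.1 to 87.1 CPM with a median of 80.9. The KO range lay inside the WT range, and the log2 fold change was 0.04 (95% interval -0.17 to 0.25). *Clock*, the gene with the seed match, was at 79.1, 111, 111, 94.97 and 121 CPM in the WT libraries and at 99.0 to 137 CPM in KO, with a median of 111. The groups overlapped, with a log2 fold change of 0.13 (95% interval -0.13 to 0.40) and an adjusted p of 1.00 (edgeR), as for every clock gene.

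Among the period genes, *Per1* was at 138, 117, 153, 106 and 134 CPM in WT replicates 1 to 5, and in KO from 60.8 to 184 CPM with a median of 127. The KO libraries held both its lowest and its highest values, and the log2 fold change of 0.02 had the widest interval of the 10 genes (-0.46 to 0.49). *Per2* was the only clock gene with a lower estimate in KO, at 32.7, 37.1, 46.8, 40.4 and 40.0 CPM in WT and 29.9 to 40.0 CPM in KO (median 36.7), a log2 fold change of -0.13 (95% interval -0.36 to 0.11). *Per3* had the largest estimate. Its values were 96.5, 108, 143, 119 and 139 CPM in WT and 114 to 152 CPM in KO (median 139), with a log2 fold change of 0.17 (95% interval -0.10 to 0.43). Both of these genes overlapped between the genotypes.

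The cryptochromes, which carry the repression of ARNTL and CLOCK, overlapped between the genotypes as well. For *Cry1* the WT values were 32.8, 41.7, 50.1, 35.97 and 50.3 CPM and the KO libraries ran from 36.7 to 50.3 CPM with a median of 44.8. *Cry2* was at 106, 110.1, 133, 119 and 124 CPM in WT and at 107 to 162 CPM in KO (median 125). The log2 fold changes were 0.06 (95% interval -0.23 to 0.34) for *Cry1* and 0.15 (95% interval -0.13 to 0.44) for *Cry2*.

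The REV-ERB gene *Nr1d1* was at 208, 179, 208, 231 and 212 CPM in WT and at 179 to 253 CPM in KO (median 205), with a log2 fold change of 0.02 (95% interval -0.25 to 0.28). *Nr1d2* was at 170.3, 216, 217, 202 and 226 CPM in WT and at 208 to 239 CPM in KO (median 229.9). WT replicate 1 was the only library below 200 CPM for *Nr1d2*, and its log2 fold change was 0.13 (95% interval -0.09 to 0.35). *Dbp*, whose transcript has among the widest daily swings of any in most tissues, was at 121, 104, 128, 136 and 104 CPM in WT and at 104 to 158 CPM in KO (median 126), with a log2 fold change of 0.11 (95% interval -0.17 to 0.40). In a two-sided exact permutation test over all ways to place 5 and 6 libraries, unadjusted p ran from 0.0779 for *Nr1d2* to 0.974 for *Nr1d1*.

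Some reads of 4 of these genes may belong to others, since the library kit does not mark strand and exons of another gene lie on the opposite strand. The shared part was 18.0% of the exonic bases of *Dbp* (with *Sphk2*), 8.55% of *Nr1d1* (with *Thra*), 4.67% of *Cry2* (with D930015M05Rik) and 0.439% of *Arntl* (with Gm45355), by Gencode M21.

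**Figure D2:**
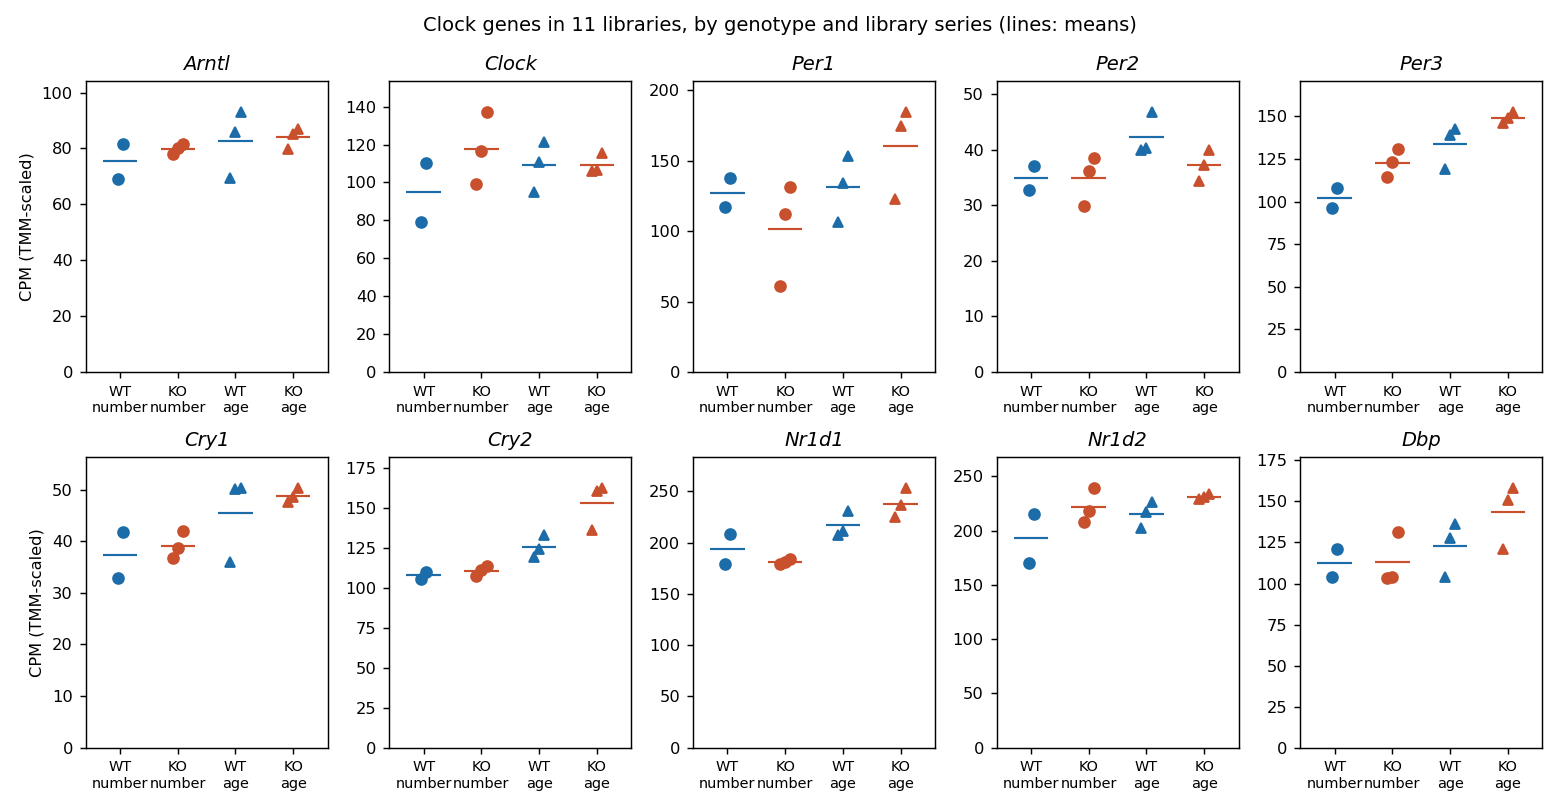
CPM on TMM-scaled library sizes of each clock gene in every library, from 0, with WT in blue and KO in orange, circles for the mouse-number series ("number") and triangles for the age series, and lines at the mean of each of the 4 groups. *Cry2* is the gene whose series do not overlap (at most 113 CPM against at least 119 CPM), and WT and KO points overlap for all 10 genes.

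The library series were compared to see whether the eyes of both were at a like state of the clock. In a fit with genotype and series, 5729 of 15767 genes (36.3%) had an adjusted p under 0.1, and 2309 of them (14.6%) were higher in the age series. Of the 10 clock genes 4 were called, all 4 higher in the age series, and for so few genes no test of this share was made. All 10 estimates were above 0, from 0.03 (*Clock*) to 0.39 (*Per1*) on the log2 scale, with a median of 0.27 beside -0.0041 over all genes tested. Whether the series differed in the hour of collection, in age or in the tissue taken cannot be told apart.

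*Cry2* rose most clearly, with a log2 fold change of 0.36 (SE 0.09, adjusted p = 0.00150). It was at 106 and 110.1 CPM in the WT and 113, 111 and 107 CPM in the KO libraries of the mouse-number series, and at 133, 119 and 124 CPM in the WT and 161, 162 and 136 CPM in the KO libraries of the age series. The series did not overlap for *Cry2*, the only one of the 10 genes for which this holds, beside 11.1% of all genes tested. *Per3* rose by 0.33 log2 units (SE 0.09, adjusted p = 0.00274), from 96.5 and 108 CPM in WT and 114, 123 and 131 CPM in KO to 143, 119 and 139 CPM in WT and 152, 149 and 146 CPM in KO. Here WT replicate 4 was the only library of the age series below a library of the mouse-number series.

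*Cry1* rose by 0.30 log2 units (SE 0.11, adjusted p = 0.0250), from 32.8 and 41.7 CPM in WT and 38.6, 42.0 and 36.7 CPM in KO to 50.1, 35.97 and 50.3 CPM in WT and 50.3, 48.6 and 47.5 CPM in KO. Again WT replicate 4, the library rich in crystallins, lay among the mouse-number libraries while the other 5 of its series stood above all of them. *Nr1d1* rose by 0.29 log2 units (SE 0.10, adjusted p = 0.0213), from 208 and 179 CPM in WT and 184, 179 and 181 CPM in KO to 208, 231 and 212 CPM in WT and 236, 253 and 225 CPM in KO. The overlap came from WT replicates 1 and 3, which both stood at 208 CPM.

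The other 6 did not pass the threshold in this fit. The estimates, as log2 fold changes, were 0.39 (SE 0.22, adjusted p = 0.184) for *Per1*, 0.25 (SE 0.13, adjusted p = 0.127) for *Dbp*, 0.18 (SE 0.10, adjusted p = 0.184) for *Per2*, and 0.10 for both *Nr1d2* (SE 0.11, adjusted p = 0.493) and *Arntl* (SE 0.10, adjusted p = 0.450). *Clock* was nearly level at 0.03 (SE 0.13, adjusted p = 0.888), and its sign turned below 0 without WT replicate 1 (-0.08), without WT replicate 5 (-0.01) or without KO replicate 3 (-0.0092). *Dbp* passed the threshold with the quasi-likelihood test (adjusted p = 0.0991), with DESeq2 (adjusted p = 0.0545), and without WT replicate 1, WT replicate 5, KO replicate 3 or KO replicate 6 (adjusted p between 0.0591 and 0.0924). Without WT replicate 4, *Per1* passed with 0.49 (adjusted p = 0.0590), and without KO replicate 2, *Per2* did with 0.23 (adjusted p = 0.0914). The calls of *Cry2*, *Per3*, *Cry1* and *Nr1d1* held in every alternative.

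Markers of other tissues moved with the series, and their part in the clock genes' difference was not tested. All 6 skeletal muscle markers were lower in the age series (median log2 fold change -1.66), and their summed level was 1384 to 6533 CPM in the mouse-number and 535 to 3686 CPM in the age series. All 5 adipocyte markers that passed the filter were lower (median -2.86), with sums of 10.6 to 416 CPM and 9.14 to 117 CPM, and *Lep*, the sixth, was at 0 in some libraries. All 6 markers of cornea and conjunctiva had estimates below 0, and 4 were called lower (median -1.54), with sums of 3753 to 9530 CPM and 1309 to 7918 CPM. Rod markers had 0 of 4 called, and their median log2 fold change was 0.23, near the 0.27 of the clock genes. In RNA of a whole eye, fewer cells of a type and less RNA per cell cannot be told apart. Without WT replicates 1 and 4, which held the most adipocyte and the most lens transcripts, 6 of the 10 clock genes were called between the series, all 6 higher in the age series, beside 43.3% of the 15584 genes tested there (19.8% called and higher). This alternative was picked once the values were known.

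**Figure D3:**
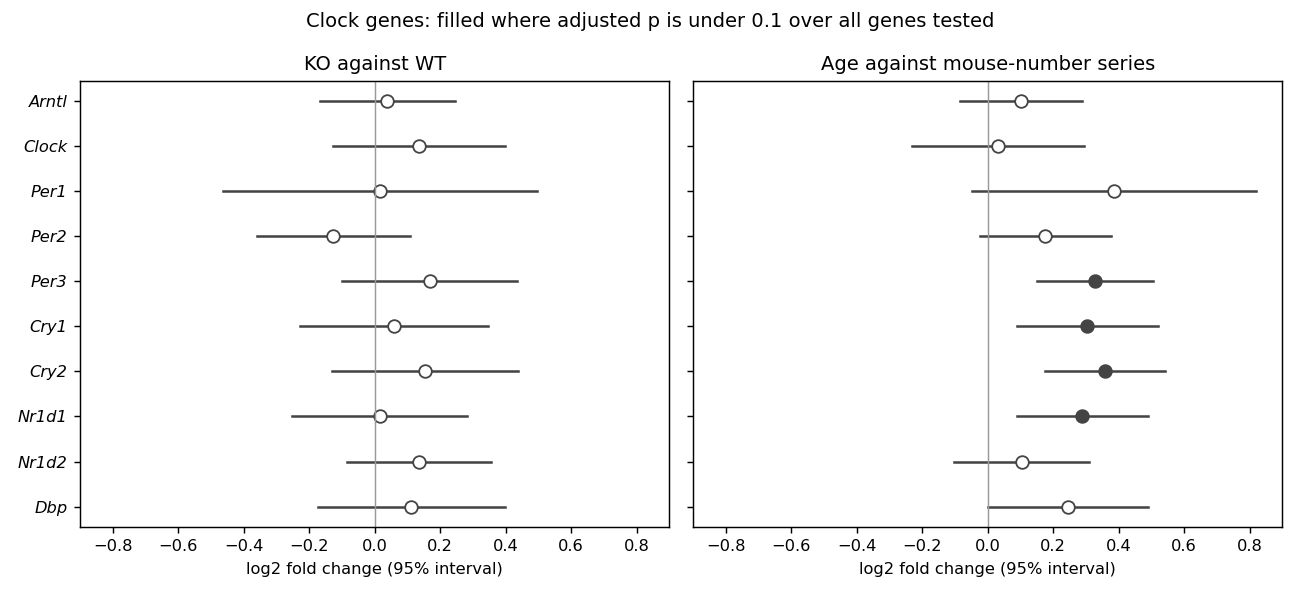
Log2 fold changes of the 10 clock genes with 95% intervals from edgeR, KO over WT on the left and age over mouse-number series, in a fit with genotype, on the right, with filled points where the adjusted p over all 15767 genes is under 0.1. All 10 intervals on the left span 0, and on the right *Per3*, *Cry1*, *Cry2* and *Nr1d1* are filled at 0.29 to 0.36.

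Whether the genotypes differed in one series and not in the other was tested as an interaction. It was called for 3 of 15767 genes (0.019%) and for 0 of the 10 clock genes, with 0 of them at an unadjusted p under 0.05. The largest estimate belonged to *Per1*, at 0.62 (SE 0.42, adjusted p = 1.00, edgeR). Its mean log2 CPM differed between KO and WT by -0.40 in the mouse-number series, where KO replicate 3 held the lowest value, and by 0.29 in the age series. With the series as a covariate, the genotype difference was 0.21 for *Per3* (SE 0.09, unadjusted p = 0.0232, adjusted p = 0.638) and 0.18 for *Cry2* (SE 0.09, adjusted p = 0.780), and 0 of the 10 genes were called. Within the age series alone 38 of 15767 genes (0.241%) and 0 of the 10 clock genes were called between genotypes. There *Cry2* had 0.29 (SE 0.13, unadjusted p = 0.0313, adjusted p = 0.999), with its KO values of 136 to 162 CPM above its WT values of 119 to 133 CPM. KO values also lay above WT values there for *Per3* (146 to 152 against 119 to 143 CPM) and *Nr1d2* (229 to 234 against 202 to 226 CPM). For *Per2* they lay below (at most 39.95 against at least 40.0 CPM). The share of all genes without overlap in this series was not taken.

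The genes that act around the loop were read in the same fits. Of 20 accessory clock genes 0 were called between genotypes, and 5 between the series, 3 higher and 2 lower in the age series, beside the 36.3% called among all genes. The changes given next are log2 fold changes, age over mouse-number series. *Bhlhe41*, which encodes the E-box repressor DEC2, rose by 0.31 (SE 0.11, adjusted p = 0.0153), *Rora*, an activator at ROR elements, by 0.28 (SE 0.13, adjusted p = 0.0814) and *Rorb*, its retinal relative, by 0.53 (SE 0.24, adjusted p = 0.0827). *Arntl2*, a paralog of *Arntl*, fell by 0.52 (SE 0.16, adjusted p = 0.00619). *Tef* and *Hlf*, the D-box factors related to *Dbp*, had estimates of 0.20 (SE 0.11) and 0.22 (SE 0.12) with adjusted p of 0.154 and 0.147. *Ciart*, a repressor of the dimer, stood at 0.23 (SE 0.12, adjusted p = 0.140), *Bhlhe40* at -0.17 (SE 0.09, adjusted p = 0.137), *Npas2*, which can replace *Clock*, at -0.32 (SE 0.16, adjusted p = 0.112) and *Nfil3*, which opposes DBP at D-boxes, at -0.12 (SE 0.12, adjusted p = 0.479). Between genotypes *Nfil3* was the one of the 20 with an unadjusted p under 0.05, at -0.27 (SE 0.13, unadjusted p = 0.0416, adjusted p = 1.00). It ran from 15.3 to 21.7 CPM in WT and from 13.3 to 17.7 CPM in KO.

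Genes known for daily rhythms in the retina were read as well. Of 12 listed, 10 passed the filter, 0 were called between genotypes and 7 were called higher in the age series, beside 14.6% of all genes, with no test of the list. The changes are again log2 fold changes, age over mouse-number series. *Drd4*, the dopamine receptor of photoreceptors, rose by 0.73 (SE 0.24, adjusted p = 0.0122), from 34.9 to 63.6 CPM in the mouse-number series to 46.3 to 112 CPM in the age series. *Kcnv2*, a photoreceptor potassium channel, rose by 0.49 (SE 0.18, adjusted p = 0.0230), *Opn4*, the melanopsin of ganglion cells, by 0.37 (SE 0.16, adjusted p = 0.0684), *Cx3cl1* by 0.33 (SE 0.07, adjusted p = 0.000115), *Drd2* by 0.32 (SE 0.11, adjusted p = 0.0191) and *Gpr176* by 0.26 (SE 0.12, adjusted p = 0.0785), beside *Rorb*. *Aanat*, the enzyme that times melatonin, was at 1.30 to 2.52 CPM in all libraries with an estimate of -0.01 (SE 0.23, adjusted p = 0.974), and *Adcy1* and *Vip* were not called either. *Asmt* and *Mtnr1a* did not pass the filter. All 4 bipolar cell markers had estimates above 0 as well, and 2 were called higher in the age series (median log2 fold change 0.21). Their sums were 698 to 803 CPM in the mouse-number and 785 to 889 CPM in the age series. The part of bipolar cells in the rise of the rhythm genes was not tested.

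Correlations between the clock genes across the 11 libraries describe whether they varied as genes of one cycle would. Of the 45 pairs, 40 had a positive Pearson r of log2 CPM, and 11 had an adjusted p under 0.05 over the 45 pairs (permutation test), all of them positive. The closest pairs were *Clock* with *Nr1d2* (r = 0.88, permutation p = 0.00052, adjusted p = 0.0117, and Spearman rho = 0.67, p = 0.0283, adjusted p = 0.139), *Arntl* with *Cry1* (r = 0.85, p = 0.00039, adjusted p = 0.0117, and rho = 0.78, p = 0.00665, adjusted p = 0.0846) and *Per3* with *Cry1* (r = 0.84, p = 0.00162, adjusted p = 0.0179, and rho = 0.77, p = 0.00752, adjusted p = 0.0846). Without the 2 libraries farthest from the median of the first gene these r were 0.63, 0.70 and 0.84, and within the age series, of 6 libraries, 0.65, 0.86 and 0.90. With a minimum of 6 libraries for a correlation, no value is given for the mouse-number series, which has 5. The relations rested in large part on WT replicate 1, which had the lowest value of 6 of the 10 genes. Without it 1 of the 45 pairs passed. *Dbp* with *Nr1d1* had r = 0.76 (permutation p = 0.00839, adjusted p = 0.0378) and rho = 0.71 (p = 0.0192, adjusted p = 0.109), with r = 0.61 without its 2 farthest libraries and 0.83 within the age series.

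*Dbp* and *Nr1d1*, which peak at nearly the opposite time of day to *Arntl*, were read against both activators. *Nr1d1* and *Arntl* had r = 0.03 (rho = 0.05, permutation p = 0.917 and 0.881, adjusted p = 0.938 and 0.944 for r and rho), *Dbp* and *Arntl* r = -0.20 (rho = -0.20, permutation p = 0.552 and 0.557, adjusted p = 0.668 and 0.697), *Dbp* and *Clock* r = -0.44 (rho = -0.65, p = 0.175 and 0.0331, adjusted p = 0.343 and 0.139), and *Nr1d1* and *Clock* r = -0.28 (rho = -0.36, p = 0.421 and 0.274, adjusted p = 0.566 and 0.440). In this order they were 0.43, -0.16, -0.63 and -0.17 without the 2 libraries farthest from the median of the activator, and -0.37, -0.50, -0.67 and -0.52 within the age series. *Nr1d2* and *Per3*, also targets of the dimer, had a positive r with both activators. *Nr1d2* and *Arntl* had r = 0.75 (rho = 0.59, permutation p = 0.00675 and 0.0612, adjusted p = 0.0378 and 0.172), which was 0.29 without the 2 farthest libraries and 0.69 within the age series. *Per3* had r = 0.66 with *Arntl* (rho = 0.51, permutation p = 0.0276 and 0.115, adjusted p = 0.0886 and 0.236) and r = 0.43 with *Clock* (rho = 0.15, p = 0.189 and 0.653, adjusted p = 0.346 and 0.774). These r of *Per3* were 0.39 and 0.11 without the 2 libraries farthest from the median of the activator, and 0.66 and 0.56 within the age series. After the means of genotype and series had been removed from each gene, 29 of the 45 pairs were positive and 16 negative, and, chosen after the values were seen, the genes could be placed in a set of *Arntl*, *Clock*, *Nr1d2*, *Cry1*, *Per3* and *Per2*, whose 15 pairs were all above 0, and a pair of *Nr1d1* and *Dbp*. *Cry2* and *Per1* belonged to neither. *Cry2* had a residual r of 0.41 with *Dbp* and of 0.43 with *Cry1*, and *Per1* one of 0.40 with *Nr1d1* and of 0.37 with *Cry1*. The residual r was -0.67 for *Dbp* and *Arntl*, -0.82 for *Dbp* and *Clock*, -0.64 for *Nr1d1* and *Arntl* and -0.78 for *Nr1d1* and *Clock*, against 0.66 for *Dbp* and *Nr1d1*. These residual values are a description with no test, and all of them share the same 11 libraries. *Nr1d2*, which cycles nearly together with *Nr1d1* in most tissues, stood with *Arntl* and *Clock* (residual r of 0.73 and 0.94) and not with *Nr1d1* (-0.73).

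The clock genes differ in the base composition of their transcripts. *Dbp*, *Per1* and *Nr1d1* have transcripts of 61.6%, 59.4% and 56.8% G and C. *Cry2*, *Per2*, *Per3* and *Cry1* follow with 55.6%, 54.3%, 52.4% and 51.6%, and *Arntl*, *Nr1d2* and *Clock* have 47.7%, 41.8% and 40.9%. As a measure picked once the values were known, the mean log2 CPM of the 1457 genes richest in G and C (58.4% or more) minus that of the 1457 poorest (41.9% or less) was taken in each library, each gene centred on its mean. It ran from -0.38 in KO replicate 2 to 0.22 in WT replicate 1. *Nr1d1* followed it with r = 0.77 (rho = 0.75, permutation p = 0.0041 and 0.0118, adjusted p = 0.041 for r over the 10 genes), and with r = 0.93 without these 2 libraries and 0.66 within the age series. For *Clock* it was r = -0.70 (rho = -0.44, permutation p = 0.0213 and 0.183, adjusted p = 0.107 for r), with r = -0.18 without the same 2 libraries and -0.66 within the age series. The other 8 genes had r from -0.49 (*Nr1d2*) to 0.55 (*Dbp*), with adjusted p from 0.263 to 0.993 (permutation test). Without these 2 libraries r was 0.21 for *Nr1d2* and 0.58 for *Dbp*, and within the age series it was -0.47 and 0.50. The part of base composition in the residual correlations was not tested.

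**Figure D4:**
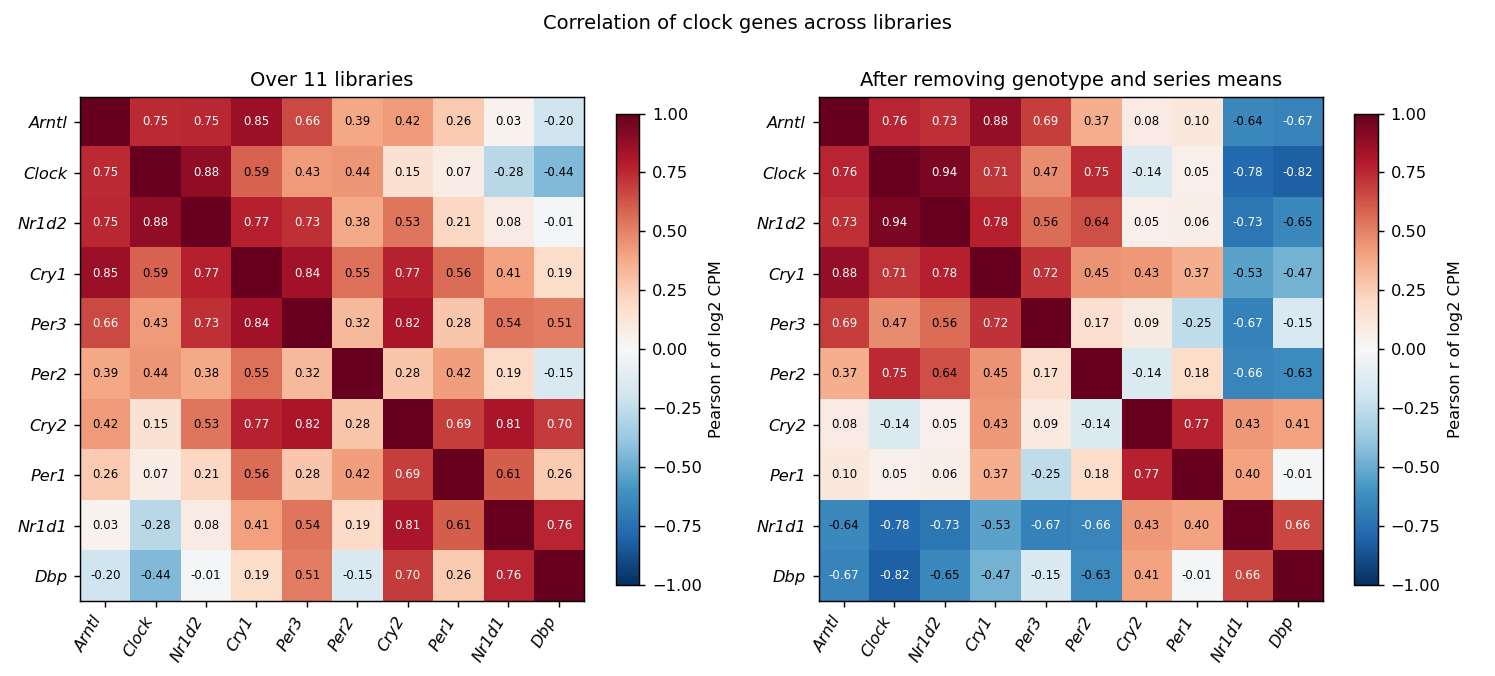
Pearson r of log2 CPM between the clock genes over the 11 libraries, as measured on the left and after removing the means of genotype and series on the right, from -1 (blue) to 1 (red). On the left most cells are positive, up to 0.88, and on the right *Nr1d1* and *Dbp* are negative with *Arntl*, *Clock*, *Nr1d2*, *Cry1*, *Per3* and *Per2*, down to -0.82.

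To read how each library lay between an *Arntl* arm and a *Dbp* arm of the loop, the mean centred log2 CPM of *Dbp*, *Nr1d1*, *Nr1d2*, *Per3* and *Tef* was subtracted from that of *Arntl*, *Clock* and *Npas2*. Of the *Dbp* arm, *Nr1d2* and *Per3* did not run opposite to the activators in these libraries. Their residual r was 0.73 and 0.69 with *Arntl* and 0.94 and 0.47 with *Clock*. In the mouse-number series the contrast was 0.18 and 0.18 in WT and 0.22, 0.20 and -0.02 in KO replicates 1, 2 and 3. In the age series it was -0.11, -0.22 and 0.19 in WT replicates 3, 4 and 5 and -0.31, -0.25 and -0.05 in KO replicates 4, 5 and 6. The mean was 0.15 ± 0.10 (SD, n = 5) in the mouse-number and -0.13 ± 0.18 (SD, n = 6) in the age series. By genotype, WT libraries had a mean of 0.04 ± 0.19 (SD, n = 5) and KO libraries one of -0.04 ± 0.22 (SD, n = 6). WT replicate 5 was the library of the age series on the side of the mouse-number libraries, and KO replicate 3 stood apart from the other mouse-number libraries. The difference between the series came from the *Dbp* arm, with means of -0.12 and 0.10, while the means of the *Arntl* arm were 0.03 and -0.03. Within the *Arntl* arm, mean log2 CPM was higher in the age series by 0.09 for *Arntl* and 0.03 for *Clock*, the direction of the *Dbp* arm. Only *Npas2*, at 5.27 to 9.68 CPM, was lower there (-0.29). The whole range of the contrast was -0.31 to 0.22 on the log2 scale, and no test was made of a score over chosen genes. In WT replicate 1 *Arntl* and *Clock* were at their lowest and *Npas2* at its highest, 9.68 CPM against at most 7.21 CPM elsewhere, so that its arm near 0 is a mean of opposite deviations.

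**Figure D5:**
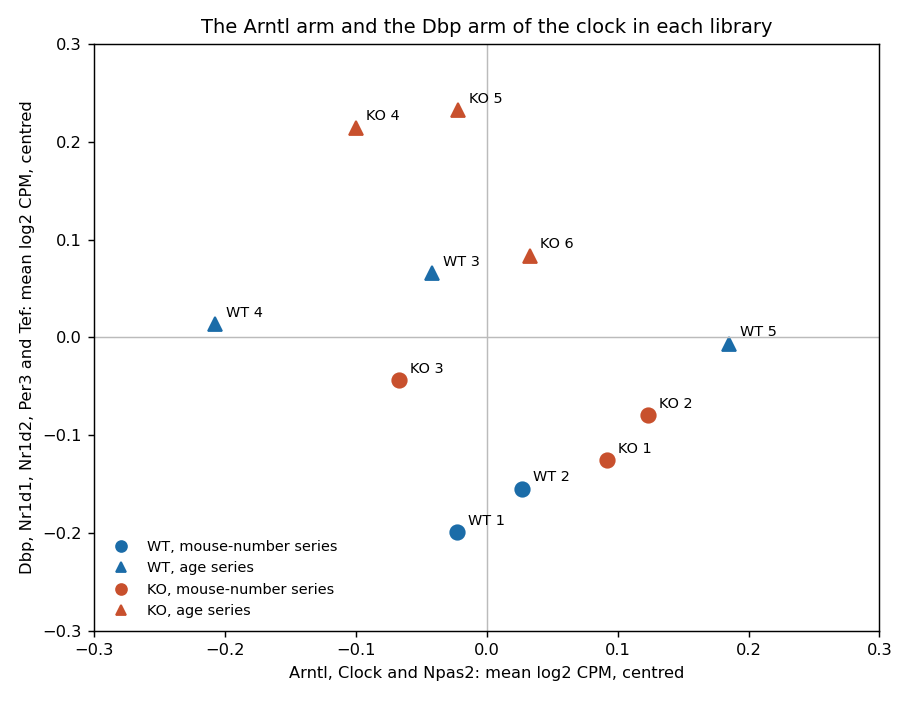
Mean centred log2 CPM of the *Arntl* arm (*Arntl*, *Clock*, *Npas2*; horizontal) and of the *Dbp* arm (*Dbp*, *Nr1d1*, *Nr1d2*, *Per3*, *Tef*; vertical) in each library, WT in blue, KO in orange, circles for the mouse-number and triangles for the age series. The 5 mouse-number libraries lie below 0 on the vertical axis, from -0.20 to -0.04, and the age libraries from -0.0063 to 0.23.

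Over the 11 libraries, the tested genes whose log2 CPM was most like that of *Dbp* were Gm11696, *Ydjc*, *Rcor2* and *Zfpm1*, with r from 0.95 to 0.97. The most opposite were *Adora2b*, *Itprid2*, *Cct4*, Gm12224 and *Fzd4*, with r from -0.96 to -0.91. For *Arntl* the most like were *Arhgef26*, *Ric8b*, *Ddhd1*, *Ccdc126* and *Zdhhc2* (r from 0.94 to 0.96), and the most opposite *Bcl2l12*, *Trim34a*, Gm11613, *Dok1* and 2310022B05Rik (r from -0.98 to -0.92). None of these named genes is one of the 10 clock genes or of the 20 accessory genes. *Rorb* was the ninth most like *Dbp* of 15766 genes (rank 9, r = 0.94), and *Nr1d1* had rank 371. Among the clock genes *Cry1* was closest to *Arntl*, at rank 200. Likeness over 11 libraries is a description, and its values come from the same libraries as all others here.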

How the data were processed

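Whole-eye RNA of 5 WT and 6 *miR-211*-/- animals was prepared with TruSeq reagents and sequenced as 100-nt pairs. With RSEM 1.2.19 and Gencode mouse release M4, the authors deposited, per gene and library, expected counts, which are not normalized, and FPKM values, scaled by RSEM for effective transcript length and mapped fragments. Genotype and replicate were taken from the labels. The expected counts, 20282241 to 36317673 per library, were rounded. Intervals and counting errors cover counting or the spread between these libraries only.

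Genes that reached 1 CPM in 5 or more libraries were fitted with edgeR 4.0.16 (R 4.3.3; TMM, glmFit, glmLRT, genotype as the only term), with Benjamini-Hochberg adjustment over all genes and a threshold of 0.1, following the study's methods. The study reported 63 genes between genotypes at this threshold, against 1 in the fit here. The cause of this difference was not tested. The series comparison added a series term, and another fit their interaction. SE is the log2 fold change divided by the root of the likelihood ratio, and the 95% interval is 1.96 SE to each side. CPM use TMM-scaled library sizes, and log2 CPM a prior count of 2. The fits were tested on simulated data. Libraries were matched to the named columns of a supplementary table by the proportions of 63 genes (coefficient of variation at most 0.193% for the matched and at least 24.5% for the next column). Correlations were tested with 100000 permutations. Named genes are the 10 clock genes, the called and some fixed members of lists of accessory clock, retinal rhythm and light or glucocorticoid genes, and the 5 genes most and least like *Dbp* and *Arntl*. Some members of these sets are not reported here. The clock genes and all lists were chosen with earlier results of these data known. Alternatives were the quasi-likelihood test, DESeq2 1.42.0, limma 3.58.1 on log2 FPKM with pseudocounts of 0.1 and 1, other normalizations, filters and thresholds, a replicate block, the series as a covariate or alone, and leaving out each library. The replicate numbers were not used to pair libraries in the main fit. The deviations of same-numbered WT and KO libraries correlated above 0.1 in 3 of 5 pairs. Each of these 3 pairs lay within a single series, so that pairing and series cannot be told apart there.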

Additional observations from a re-analysis of the deposited data

How the results depend on the processing

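Over all alternatives, 212 of 230 log2 fold changes of clock genes between genotypes kept their direction, and 0 were called. The 18 that reversed were of *Arntl*, *Clock*, *Per1*, *Cry1* and *Nr1d1*. Between the series, 156 of 170 kept direction and call, 10 passed the threshold only in the alternative and 4, all of *Clock*, reversed. With each library left out, the genotype values ran from -0.0087 (without WT replicate 1) to 0.10 for *Arntl*, from -0.11 to 0.16 for *Per1*, from -0.019 (without WT replicate 1) to 0.13 for *Cry1* and from -0.046 to 0.066 for *Nr1d1*, and the series value of *Clock* from -0.077 to 0.11. The reversals came for *Per1* without WT replicates 2 or 4 or KO replicates 4 or 5, for *Nr1d1* without WT replicate 2 or KO replicates 4, 5 or 6, and for *Clock* without WT replicates 1 or 5 or KO replicate 3. Without WT replicates 1 and 4 together, an alternative added once the data were known, the genotype values were -0.078 for *Arntl*, -0.0069 for *Clock*, -0.035 for *Per1* and -0.10 for *Cry1*, and the series value of *Clock* was -0.038. In the mouse-number series alone *Per1* had -0.33 and *Nr1d1* -0.094. With the replicate block, which leaves out KO replicate 6, *Per1* had -0.045 and *Nr1d1* -0.017, 10 genes and 0 clock genes were called between genotypes, and the block changed no other call. The causes were not tested.

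The number of genes called between genotypes, 1, was 0 with the quasi-likelihood test (446 at an unadjusted p under 0.05), 2 with DESeq2, 2 with all genes of at least 1 count, 10 with the series as a covariate, 7 in the mouse-number and 38 in the age series alone, and 1 to 11 with each library left out (11 without KO replicate 1 and 2 without WT replicate 2). The interaction, called for 3 genes, gave 1 at a threshold of 0.05, 0 with the quasi-likelihood test (683 at an unadjusted p under 0.05), and 0 to 224 with each library left out, 224 without WT replicate 2, 9 without WT replicate 3, 7 and 6 without KO replicates 1 and 6, 1 without WT replicate 1, and 0 without WT replicates 4 or 5 or KO replicate 5. The number of correlated pairs, 11, ran from 1 to 13, with 1 without WT replicate 1, 6 without WT replicate 2, 5 without WT replicate 4, 7 without KO replicate 4 and 6 without KO replicate 5 or 6. The exact permutation test between genotypes, with 0 clock genes at p under 0.05, ran from 0 to 1, for *Nr1d2* without WT replicate 5 (p = 0.0381) or KO replicate 3 (p = 0.0159). The intervals of the report, widest for *Per1*, bound the differences that 5 and 6 libraries can show.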

Other observations

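Genes that respond to light or to glucocorticoids, which also induce *Per1*, were read beside the clock genes. Of 10 listed, 0 were called between genotypes over all libraries, 2 were in the age series alone, and 1, *Junb*, an immediate early gene, was called between the series, where it fell by 0.62 in the age series (SE 0.19, edgeR adjusted p = 0.00735). Over all genes tested the shares called in these comparisons were, in the same order, 0.00634%, 0.241% and 36.3%. The immediate early genes *Fos* and *Egr1* were highest in WT replicate 1, at 31.7 and 44.6 CPM, against at most 28.9 and 20.5 CPM in the other libraries. *Fkbp5* and *Tsc22d3*, which glucocorticoids induce, were lowest in KO replicate 3, at 21.4 and 35.1 CPM, against 35.4 to 98.3 and 54.7 to 122 CPM elsewhere. *Zbtb16*, another such gene, was at 3.50 CPM in KO replicate 3 and at 7.63 to 38.9 CPM elsewhere. The same library had the lowest *Per1*, at 60.8 CPM, and the lowest *Usp2*, a clock-controlled protease gene, at 75.3 CPM against 124 CPM or more elsewhere, while its *Dbp* (131 CPM) and *Nr1d1* (181 CPM) lay within the range of the other libraries. Of the other genes on this list, *Fos*, *Egr1*, *Nr4a1*, *Sik1* and *Dusp1* were lowest in KO replicate 3 as well. *Sgk1*, which glucocorticoids also induce, was lowest in KO replicate 5 (226 CPM, against 249 CPM in KO replicate 3), and *Junb* in WT replicate 3. The genes named for KO replicate 3 were singled out there after their values were seen.

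Between genotypes the estimates of *Fkbp5* and *Tsc22d3* were -0.37 (SE 0.36) and -0.33 (SE 0.28), and those of *Fos* and *Egr1* 0.05 (SE 0.23) and -0.45 (SE 0.31), each with an edgeR adjusted p of 1.00. The KO libraries of the age series, at 36.4, 35.4 and 42.6 CPM of *Fkbp5*, lay below its WT libraries, at 66.9, 61.3 and 63.3 CPM, and in the mouse-number series KO replicates 1 and 2 (95.8 and 93.2 CPM) lay between WT replicates 1 and 2 (59.0 and 98.3 CPM) and KO replicate 3 below both. In the age series alone *Fkbp5* fell by 0.74 on the log2 scale in KO (SE 0.13, edgeR adjusted p = 0.000276, the lowest p of all genes) and *Tsc22d3* fell by 0.55 (SE 0.14, edgeR adjusted p = 0.0683), 2 of the 38 genes called there. In the mouse-number series alone the estimates were -0.16 (SE 0.62) and -0.21 (SE 0.51), each with an edgeR adjusted p of 0.999. The interaction of genotype and series, the test of this difference, was -0.58 for *Fkbp5* (SE 0.67) and -0.34 for *Tsc22d3* (SE 0.55), each with an edgeR adjusted p of 1.00. *Fos* and *Egr1* had estimates of -0.57 (SE 0.28) and -1.17 (SE 0.45) in the mouse-number series, which holds WT replicate 1. In the age series they were 0.58 (SE 0.16, edgeR adjusted p = 0.124) and 0.20 (SE 0.17). The interaction was 1.14 for *Fos* (SE 0.32, edgeR adjusted p = 0.656) and 1.36 for *Egr1* (SE 0.49), and neither was called.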
